A study of Mus musculus with 8 samples.

Results

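Epithelial cells are held together and sealed by their junctions, and 36 mouse genes of these structures were followed here across 3 kinds of colonic tumor: 15 claudins, 8 other tight junction genes, 5 genes of the adherens junction and related adhesion, 7 desmosome genes and 1 connexin. The genes were listed by name, with earlier results of these data known. Each had a probe set annotated with its symbol alone, and they are 36 of 19938 genes tested. Where a gene had several probe sets the one with the highest mean signal over all arrays was taken, which applied to Cldn10 only. Its 2 probe sets stood within 0.16 of each other on every array.

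RNA from 8 colonic tumors was hybridised to 1 Affymetrix mouse gene array each, and values are log2 signals, so that a difference of 1 is a 2-fold change. The first group (3 arrays) held tumors of the distal colon induced with azoxymethane (AOM), a colon carcinogen, in mice labelled K-rasG12Dint, here K-rasG12D. The second (2 arrays) held AOM tumors of the distal colon in mice labelled LSL-K-rasG12D/+, here LSL, whose sample titles read wt. LSL usually stands for lox-stop-lox, a stop cassette that a recombinase has to remove before the allele is expressed. The serrated group (3 arrays) held tumors of the proximal colon in mice labelled K-rasG12Dint/Ink4a/Arf-/-. AOM is named for the AOM groups only, so tumor type, carcinogen, colon segment and Ink4a/Arf genotype cannot be told apart in any comparison with the serrated group. All 3 genotype labels name the K-ras G12D allele, but the LSL label differs from the K-rasG12Dint of the other groups. In comparisons of serrated with LSL tumors the K-ras label therefore differs as well. The same holds in part for comparisons with the mean of both AOM groups. Strain, age and sex, and the promoter that drives recombination, are not given in the labels used here, nor whether each tumor came from a mouse of its own. P-values therefore measure the spread between these samples, which may be technical in part. No normal colon was measured.

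Tight junctions seal the space between neighbouring cells. Their claudins span the membrane, and each kind either closes the seal or forms a pore of its own ion preference, while occludin and tricellulin are other membrane proteins of the seal and the zonula occludens proteins and cingulin tie it to actin. Below them lie adherens junctions, where the cadherin Cdh1 binds its like on the next cell and catenins inside, and desmosomes, where desmosomal cadherins, plakophilins, plakoglobin and desmoplakin anchor keratin filaments. In gut, Cldn2 and Cldn15 form cation pores and Cldn15 is best known from the small intestine, Cldn3, Cldn4, Cldn7, Cldn8 and Cldn23 are epithelial claudins of the colon, and Cdh17 is an intestinal cadherin.

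Start-site sequences are shown for the claudins that differed most clearly, Cldn4 and Cldn15, and for Cldn3, which is the next protein-coding gene to Cldn4 on chromosome 5 and did not pass. Each is a window of 250 bases before to 50 bases after the annotated start, from RefSeq on GRCm38.p6, printed on the gene's strand. Capitals mark copies of the E-box CAGGTG and of the GC box GGGCGG on either strand.
Cldn4, chr5:134946885-134947184, minus strand: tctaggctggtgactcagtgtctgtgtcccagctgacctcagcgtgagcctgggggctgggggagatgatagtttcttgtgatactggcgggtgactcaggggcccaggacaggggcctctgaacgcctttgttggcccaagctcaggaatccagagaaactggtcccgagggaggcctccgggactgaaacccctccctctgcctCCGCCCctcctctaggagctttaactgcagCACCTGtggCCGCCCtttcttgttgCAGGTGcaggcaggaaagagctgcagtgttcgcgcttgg
Cldn3, chr5:134985964-134986263, plus strand: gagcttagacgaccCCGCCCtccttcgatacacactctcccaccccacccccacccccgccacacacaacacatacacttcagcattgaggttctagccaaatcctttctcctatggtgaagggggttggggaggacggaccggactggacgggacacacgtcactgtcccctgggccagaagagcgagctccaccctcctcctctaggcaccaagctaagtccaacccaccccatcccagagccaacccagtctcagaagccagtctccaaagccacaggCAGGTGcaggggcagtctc
Cldn15, chr5:136967619-136967918, plus strand: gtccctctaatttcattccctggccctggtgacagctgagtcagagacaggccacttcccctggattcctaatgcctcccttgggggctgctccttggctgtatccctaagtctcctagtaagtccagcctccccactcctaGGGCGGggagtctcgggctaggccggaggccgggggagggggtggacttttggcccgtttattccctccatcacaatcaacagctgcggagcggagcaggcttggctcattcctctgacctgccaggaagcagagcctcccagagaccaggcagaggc
The Cldn4 window held 2 E-boxes and 2 GC boxes, the Cldn3 window 1 of each, and the Cldn15 window 1 GC box and 0 E-boxes. Both motifs, the TCF/LEF core CTTTGA and the CDX core TTTATG were searched on both strands in the 33 windows of the 23 genes that matched by symbol. The E-box was in 15 of these windows (45.5%) against 20.2% of all 32851 windows, and the GC box in 22 (66.7%) against 35.7%. The TCF/LEF core was in 1 of them and in 5257 of all windows, and the CDX core in 5 (15.2% against 11.9%). The junction windows were richer in G and C, with a median of 60.3% against 52.7%, and some windows of a gene overlap, so these shares are descriptions of the letters only.

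In serrated tumors Cldn4 fell and Cldn15, Cdh17 and Perp rose against the mean of both AOM groups, while the general epithelial adhesion genes Epcam, Cdh1 and Ctnna1 differed by 0.05 or less on the log2 scale. Cldn4 was lower by 1.27 ± 0.22 (SE), or 2.41-fold, and Cldn15 higher by 1.06 ± 0.19, or 2.09-fold. Cdh17 was higher by 0.70 ± 0.17 and Perp by 0.64 ± 0.15, which are folds of 1.62 and 1.56. So 3 of 36 genes rose, 1 fell and 32 did not pass, where passing means an adjusted p under 0.05 in limma over all 19938 genes. Of all genes 9.38% passed, 3.62% higher and 5.76% lower. Of those calls 38.6% were higher, and 48.9% with array medians subtracted, while the junction calls were the same 4. The 4 called junction genes are 11.1% of the 36, a share near that of all genes, and the median difference was 0.06 over the junction genes and 0.04 over all genes.

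**Figure D1:**
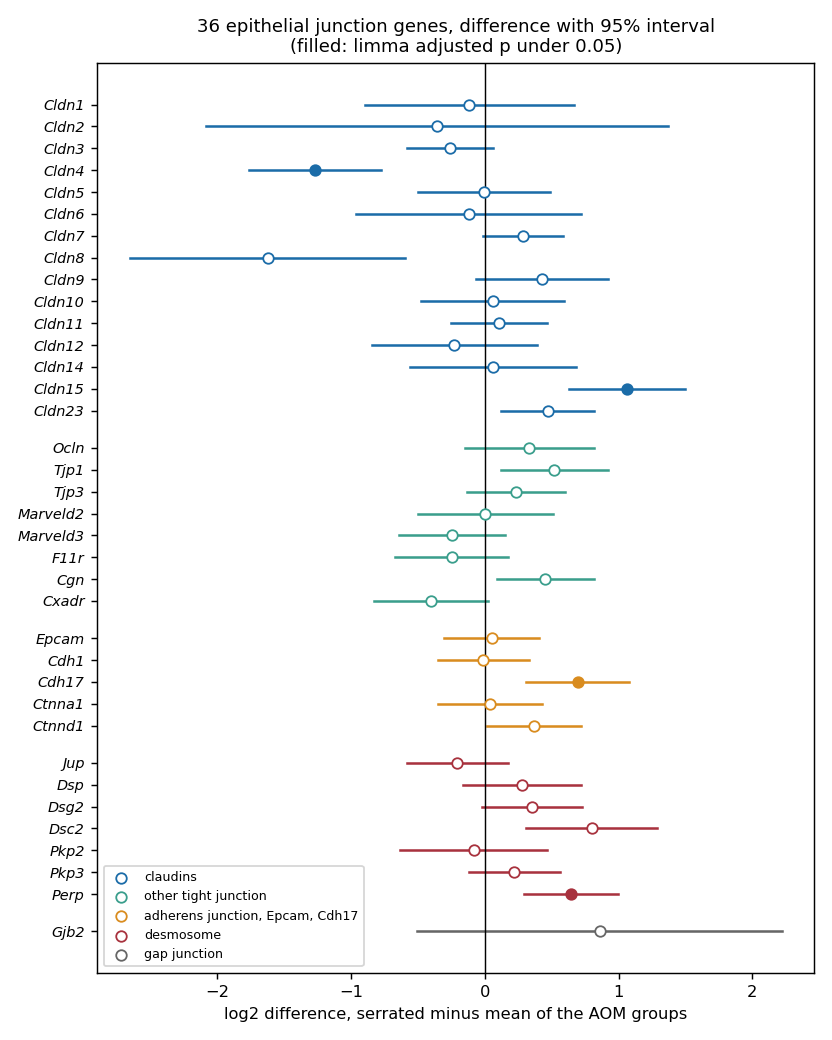
Log2 difference of each of the 36 junction genes (vertical axis, grouped by structure), serrated minus the mean of the AOM group means; lines are 95% intervals from the limma fit, not adjusted for the number of genes, and filled points passed at an adjusted p under 0.05. Cldn4 lies at -1.27 and Cldn15, Cdh17 and Perp at 1.06, 0.70 and 0.64, while Epcam and Cdh1 lie at 0.05 and -0.01.

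Among the sealing claudins, Cldn4 gave 9.06, 9.16 and 8.43 in serrated tumors, 9.88, 10.24 and 9.62 in AOM tumors of K-rasG12D mice and 10.47 and 10.29 in those of LSL mice. Every serrated array was below every AOM array (adjusted p = 0.00967). Its call held in each of 16 other settings run, with differences from -1.41 to -1.04. Cldn3, its neighbour on the chromosome, stood at 8.47, 8.49 and 8.24 in serrated tumors, 8.26, 8.49 and 8.32 in K-rasG12D AOM tumors and 9.01 and 8.93 in LSL AOM tumors, so the serrated arrays overlapped the K-rasG12D group and lay below the LSL group. Its difference was -0.26 ± 0.14 (adjusted p = 0.290), with a 95% interval of -0.58 to 0.06, and that of Cldn4 was -1.76 to -0.77. The intervals do not overlap, but the difference between the changes of these neighbours was not itself tested.

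Cldn7, an epithelial claudin found along the whole lateral membrane, was at 9.29, 9.26 and 9.08 in serrated tumors and 8.88 to 8.99 on the AOM arrays. The groups did not overlap, but the difference of 0.28 ± 0.13 did not pass (adjusted p = 0.223). Cldn23 was at 5.70, 6.19 and 5.95 in serrated tumors and 5.41 to 5.56 in AOM tumors, again without overlap, and its 0.47 ± 0.15 did not pass (adjusted p = 0.0918). Cldn8, a sealing claudin of the distal colon, had the widest difference of all 36, -1.62 ± 0.45 (adjusted p = 0.0586). It stood at 3.68, 3.43 and 2.58 in serrated tumors, 4.79, 3.42 and 5.58 in K-rasG12D AOM tumors, and 4.95 and 5.26 in LSL AOM tumors. Only K-rasG12D replicate 2 reached down into the serrated range. Cldn8 passed in 5 other settings: with the dimmest 40% of genes left out, after quantile normalisation, with limma's trend and robust options, with array weights and without K-rasG12D replicate 2.

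Of the pore-forming claudins, Cldn15 stood at 5.72, 5.63 and 5.58 in serrated tumors, 5.17 and 5.06 in LSL AOM tumors, and 3.86, 3.76 and 4.50 in K-rasG12D AOM tumors (adjusted p = 0.0120 for serrated against all AOM). The 3 groups were thus stepped, with no overlap between any of them. It did not pass without serrated replicate 2 or when the AOM arrays were fitted as 1 group (adjusted p of 0.0566 to 0.0583). Cldn2 went with no group: the serrated arrays ran from 4.04 on replicate 1 through 5.45 on replicate 2 to 7.83 on replicate 3, which spans all AOM values (5.22 to 7.06). Its SD was 1.91 in serrated tumors (n = 3) and 0.74 over the AOM arrays (n = 5). The difference of -0.36 had a 95% interval of -2.08 to 1.37, so a change over 2-fold in either direction lies within the interval.

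The remaining claudins were dimmer or flat. Cldn1, Cldn9, Cldn10 and Cldn11 lay below the median gene on every array, Cldn5, Cldn6, Cldn8, Cldn14, Cldn15 and Cldn2 on some, and the other 26 genes on none. Differences of dim genes are compressed on this scale. Cldn12, a claudin linked to calcium transport, differed by -0.23 ± 0.27. Cldn1, Cldn5, Cldn6, Cldn9, Cldn10, Cldn11 and Cldn14 differed by -0.12 to 0.43, and none passed. Cldn5, the main claudin of blood vessels, was at 4.76, 4.09 and 3.98 in serrated and 3.83 to 4.81 in AOM tumors. Of 10 endothelial markers 0 passed, and their mean level was 4.28 to 5.12 in serrated and 4.28 to 4.95 in AOM tumors.

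**Figure D2:**
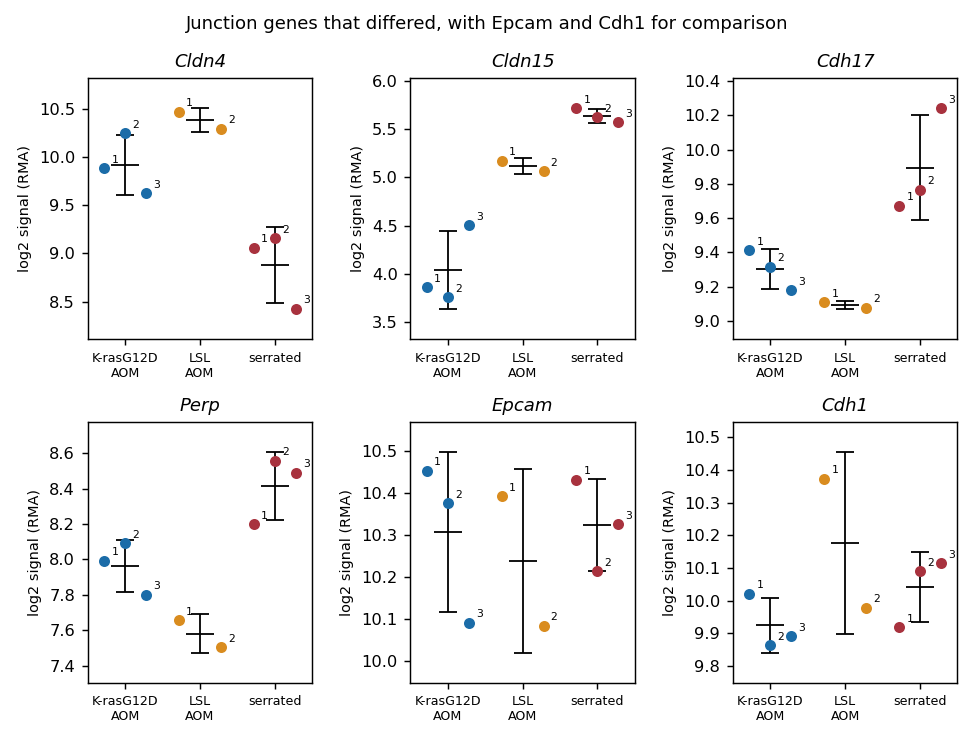
Log2 signal of the 4 junction genes that passed, with Epcam and Cdh1, on each of the 8 arrays by group; numbers are replicates, bars the mean and SD (n = 3, 2 and 3), and each panel has its own vertical range. Serrated arrays lie below all AOM arrays for Cldn4 and above them for Cldn15, Cdh17 and Perp, and overlap them for Epcam and Cdh1.

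The other tight junction genes gave 0 calls of 8. The scaffold Tjp1, or ZO-1, was at 7.91, 8.50 and 8.05 in serrated tumors and 7.47 to 7.90 in AOM tumors. The groups did not overlap, by a margin of 0.01, and the difference of 0.52 ± 0.18 did not pass (adjusted p = 0.104). Cingulin, Cgn, another cytoplasmic partner of the seal, was at 7.41, 7.79 and 7.47 against 6.80 to 7.32, without overlap, at 0.45 ± 0.16 (adjusted p = 0.115). Both scaffolds were thus higher on all serrated arrays, but neither by more than limma's threshold over all genes asks for. Occludin, Ocln, differed by 0.33 ± 0.21, with serrated replicate 2 at 7.24 above all other arrays (6.20 to 6.62). Marveld2, or tricellulin, which lies next to Ocln on chromosome 13 and marks corners where 3 cells meet, differed by 0.00 ± 0.22. Marveld3, of the same protein family, differed by -0.24 ± 0.17. F11r, the junctional adhesion molecule JAM-A, differed by -0.25 ± 0.19 and Cxadr, the coxsackievirus and adenovirus receptor, by -0.40 ± 0.19. Tjp3, or ZO-3, at 0.23 ± 0.16, separated the AOM groups more than it did the serrated group.

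Of the 5 adherens junction and adhesion genes 1 rose, Cdh17, 0 fell and 4 did not pass. Epcam, the pan-epithelial adhesion molecule, stood at 10.45, 10.38 and 10.09 in K-rasG12D AOM, 10.39 and 10.08 in LSL AOM and 10.43, 10.21 and 10.33 in serrated tumors. Its difference of 0.05 had a 95% interval of -0.30 to 0.41. Cdh1, or E-cadherin, stood at 10.02, 9.86 and 9.89, then 10.37 and 9.98, and 9.92, 10.09 and 10.11 in the same order, with an interval of -0.35 to 0.33. Ctnna1, alpha-catenin, had one of -0.35 to 0.43. A 2-fold change of these 3 genes lies outside the intervals. Ctnnd1, p120-catenin, which holds cadherins at the surface, was at 8.94, 9.18 and 9.24 in serrated tumors against 8.39 to 9.02, and its 0.37 ± 0.16 did not pass (adjusted p = 0.186).

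Cdh17, the intestinal cadherin, stood at 9.67, 9.76 and 10.24 in serrated tumors, 9.41, 9.32 and 9.18 in K-rasG12D AOM and 9.11 and 9.08 in LSL AOM tumors. Every serrated array was above every AOM array, with serrated replicate 3 the highest (adjusted p = 0.0371). The call was lost when any of 6 arrays was left out, that is each AOM array or serrated replicate 2 (adjusted p of 0.0744 to 0.107), with differences of 0.52 to 0.81.

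Among desmosome genes, Perp, a membrane protein of desmosomes and a target of p53, stood at 8.20, 8.56 and 8.49 in serrated, 7.99, 8.09 and 7.80 in K-rasG12D AOM and 7.66 and 7.50 in LSL AOM tumors (adjusted p = 0.0341). Every serrated array was above every AOM array, and the lowest, replicate 1, by 0.11. The call was lost without the same 6 arrays in turn and when the AOM arrays were fitted as 1 group (adjusted p of 0.0631 to 0.151). Desmocollin 2, Dsc2, had the larger difference, 0.80 ± 0.22, at 8.61, 9.06 and 9.32 against 7.84 to 8.54, but a wider spread, and did not pass (adjusted p = 0.0524). It passed in 6 other settings: with the dimmest 40% of genes left out, after quantile normalisation, with the trend and robust options, with array weights, with the AOM arrays fitted as 1 group and without serrated replicate 1. Its partner desmoglein 2, Dsg2, was at 8.52, 8.73 and 8.59 against 8.04 to 8.46, without overlap, at 0.35 ± 0.16 (adjusted p = 0.221). Desmoplakin, Dsp, differed by 0.28 ± 0.19, Pkp3 by 0.22 ± 0.15, Pkp2 by -0.08 ± 0.24 and plakoglobin, Jup, by -0.21 ± 0.17. So 1 of 7 desmosome genes rose, 0 fell and 6 did not pass.

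Gjb2, connexin 26, the gap junction member, stood at 4.29 on serrated replicate 1 but 7.02 and 6.80 on replicates 2 and 3, against 4.78 to 6.08 in AOM tumors. The difference of 0.86 ± 0.60 did not pass, and without serrated replicate 1 it did. Gjb1, connexin 32, named after its values were seen, was split in the same way, at 5.03, 8.05 and 8.39 in serrated and 5.43 to 6.17 in AOM tumors.

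Over the 36 genes, serrated and AOM arrays did not overlap in 10, or 27.8%, against 16.2% of all genes. Of these, 9 were higher in serrated tumors (25.0% against 7.24%) and 1 was lower (2.78% against 8.93%). The 9 are Cldn7, Cldn15, Cldn23, Tjp1, Cgn, Cdh17, Dsg2, Dsc2 and Perp. This share was not tested for the list, and 6 of the 9 did not pass singly.

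Some markers of other cell types also differed in the same comparison, where 3.62% of all genes rose and 5.76% fell. Of 10 stomach markers 6 rose and 0 fell in serrated tumors, with mean levels of 5.68, 8.45 and 8.27 against 3.12 to 3.55. Of 10 fibroblast markers 3 fell and 0 rose, with mean levels of 5.84 to 6.69 against 6.57 to 7.47, and 2 of the 10 were higher. Of 9 immune markers 2 fell, Cd68 and Csf1r, and 0 rose (4.45 to 5.26 against 4.90 to 5.75). In that list 3 were higher, among them the T cell genes Cd3e and Cd3g, by 0.53 and 0.73. Of 8 smooth muscle markers 0 were called and 7 were higher. Of 12 epithelial markers 1 rose, the keratin Krt20, and 1 fell, Ehf, with mean levels of 9.27 to 9.67 against 9.02 to 9.43. Of 8 squamous markers 1 rose and 0 fell. It was Ivl, involucrin, by 3.27 (adjusted p = 0.0341), at 3.25, 6.67 and 7.30 on the serrated arrays and 2.24 to 2.79 on the AOM arrays. The mean of the squamous list was 6.44 on serrated replicate 2 and 3.62 to 4.51 on the other 7 arrays. The keratins Krt5, Krt13 and Krt4 were highest on that replicate, at 8.73, 8.35 and 7.50. On the AOM arrays they ran from 2.64 to 6.92, 5.44 to 6.62 and 2.84 to 3.55. Krt14 stood at 4.65, 7.20 and 4.88 in serrated and 5.65 to 7.63 in AOM tumors. In whole tumors fewer cells of a type and less RNA per cell cannot be told apart. The part of stromal, gastric and squamous markers in the junction results was not tested. Levels set against Epcam or Cdh1 on the same array are a description, since the 4 genes were chosen for differing between these arrays. Relative to Epcam, Cldn4 was lower by 1.27 on the log2 scale, and Cldn15, Cdh17 and Perp were higher by 1.13, 0.63 and 0.56. Relative to Cdh1, Cldn4 was lower by 1.24, and Cldn15, Cdh17 and Perp were higher by 1.15, 0.66 and 0.59. In each of these 8 cases the serrated and AOM arrays did not overlap.

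The AOM groups were then set against each other, which asks how the K-rasG12Dint and LSL genotypes differ within AOM tumors. No junction gene passed, and 0 of 19938 genes did in limma (0%). At an unadjusted p under 0.05 there were 7 junction genes (19.4%) and 1666 of all genes (8.36%). Fitting only these 5 arrays gave 4 calls over all genes, leaving out single arrays 0 to 4 and array weights 58, with no junction gene among them. Cldn15 was lower in the K-rasG12D than in the LSL group by 1.08 ± 0.24 (adjusted p = 0.269), and Cldn3, which the groups also separated, by 0.62 ± 0.18 (0.362). Tjp3 stood at 7.26, 6.94 and 6.98 in K-rasG12D and 8.10 and 7.72 in LSL tumors, a difference of -0.85 ± 0.20 (0.281). Plakoglobin, Jup, was at 7.99, 7.82 and 7.80 against 8.91 and 8.47, at -0.82 ± 0.21 (0.307), and Pkp3 at 6.01, 6.02 and 5.64 against 6.49 and 6.51, at -0.61 ± 0.19 (0.390). Cldn1 went the other way, at 2.46, 3.78 and 3.99 against 2.16 and 1.82 (1.42 ± 0.43, adjusted p = 0.384), all at dim levels, and Cldn5 at 0.62 ± 0.27 (0.592). Arrays of the AOM groups did not overlap in 14 of 36 junction genes, or 38.9%, against 32.1% of all genes, so separation of 3 from 2 arrays is common here.

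**Figure D3:**
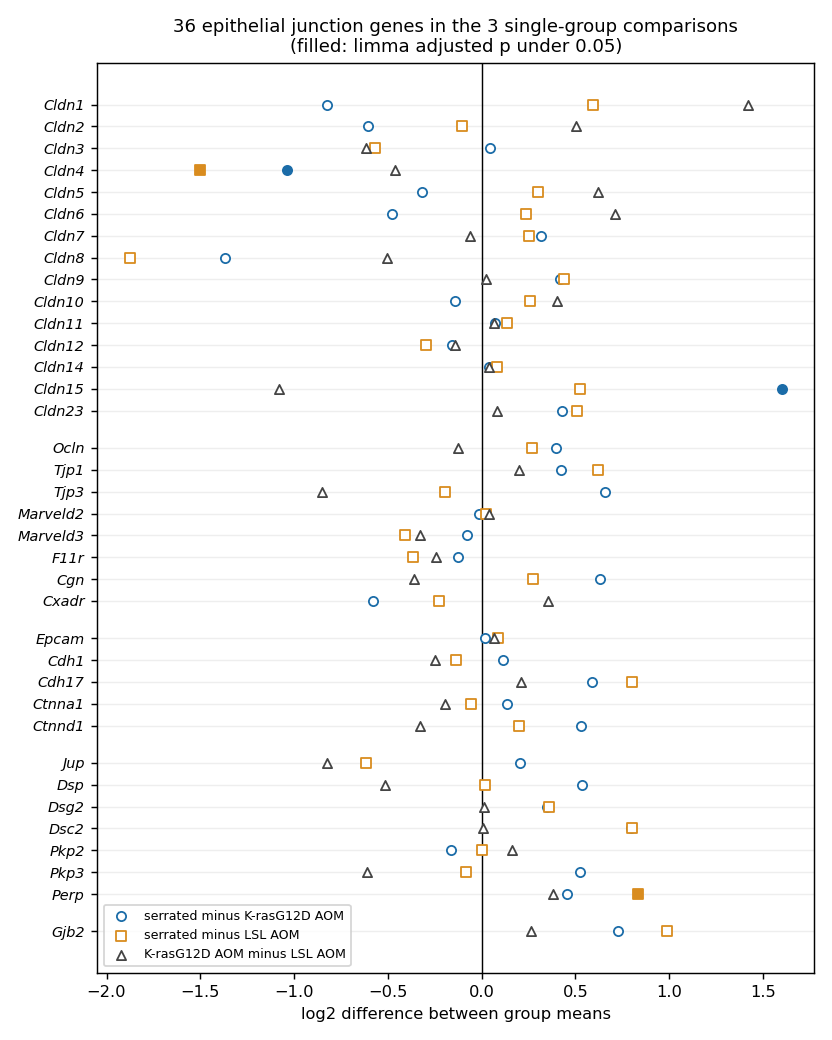
Log2 differences of the 36 junction genes between pairs of groups: serrated minus K-rasG12D AOM (circles), serrated minus LSL AOM (squares) and K-rasG12D AOM minus LSL AOM (triangles), with filled symbols for an adjusted p under 0.05 in limma. Cldn4 is filled against both AOM groups, Cldn15 against K-rasG12D AOM and Perp against LSL AOM only.

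The single comparisons share the serrated arrays, so their values are given side by side. Against K-rasG12D AOM tumors 1 of 36 genes rose, 1 fell and 34 did not pass, and 6.45% of all genes passed, 2.46% higher and 3.99% lower. Against LSL AOM tumors 1 rose, 1 fell and 34 did not pass, and 5.71% of all genes passed, 2.31% higher and 3.4% lower. Both shares of 5.56% are near the background. Cldn4 was lower by 1.04 ± 0.24 (adjusted p = 0.0402) against K-rasG12D and was 2.83-fold lower (0.0180) than in LSL tumors. The first call was lost in 8 of 16 alternatives (0.0559 to 0.164), among them the removal of each K-rasG12D array, each LSL array or serrated replicate 2. The second was lost without either LSL array and when only the arrays compared were fitted (0.0604 to 0.145).

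Cldn15 was higher by 1.60 ± 0.21 (adjusted p = 0.00462) against K-rasG12D tumors, in all 16 alternatives, and by 0.52 ± 0.24 (0.260) against LSL tumors. Perp was higher by 0.84 ± 0.19 (0.0390) against LSL tumors and by 0.45 ± 0.17 (0.160) against K-rasG12D tumors. The Perp call was lost in 8 of 16 alternatives (0.0537 to 0.232), the removal of each AOM array or of serrated replicate 2 among them. Whether the serrated difference of Cldn15 or Perp depends on the AOM group is the contrast of the AOM groups itself, -1.08 and 0.38, which passed for neither. Cldn3 and Jup were at the K-rasG12D level in serrated tumors (0.05 ± 0.16 and 0.21 ± 0.18) and below the LSL level (-0.57 ± 0.18 and -0.62 ± 0.21, adjusted p = 0.101 and 0.130). Tjp3 and Pkp3 were near the LSL level (-0.19 ± 0.20 and -0.08 ± 0.19) and above the K-rasG12D level (0.66 ± 0.18 and 0.53 ± 0.17, 0.0645 and 0.100).

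Of 72 further junction genes listed by structure, 62 were measured, and in serrated against all AOM tumors 3 rose, 3 fell and 56 did not pass, or 9.68% called. That share is near the 9.38% of all genes, 3.62% higher and 5.76% lower. The median difference of the 62 was 0.12, against 0.04 over all genes. Cldn18, the claudin of stomach and lung, which is also among the stomach markers above, stood at 5.71, 9.66 and 9.08 in serrated and 2.99 to 3.80 in AOM tumors. It rose by 4.75 ± 0.77 (adjusted p = 0.00765), a larger difference than that of any of the 36 genes, and replicate 1 was the lowest serrated array. Without serrated replicate 1 the difference was 5.97, without replicate 2 it was 3.996, and it passed without each array in turn. Ildr1, an angulin that recruits tricellulin to tricellular corners, was at 8.73, 8.48 and 8.77 against 6.94 to 7.75 and rose by 1.35 ± 0.23 (0.00908). The polarity gene Pard6b rose by 0.56 ± 0.14 (0.0385) and lost its call without each AOM array in turn, without serrated replicate 2 and with the trend and robust options (0.0661 to 0.164). Lsr, also an angulin and named after its values were seen, lay lower on all serrated arrays, at 6.07, 7.40 and 7.61 against 7.94 to 8.56, and did not pass (-1.21 ± 0.33, 0.0519).

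Of the 8 further desmosome genes measured 0 rose, 2 fell and 6 did not pass (25% called against 9.38% of all genes). Of the 8, 4 were higher and 4 lower. The 2 that fell, Dsg4 and Pkp1, belong to stratified epithelia. Dsg4 stood at 2.97, 2.68 and 2.54 in serrated tumors, 6.39, 6.02 and 5.82 in K-rasG12D AOM tumors, and 6.21 and 3.70 in LSL AOM tumors. It fell by 2.78 ± 0.47 (adjusted p = 0.00916), but did not pass against LSL AOM tumors alone (-2.22, 0.0639). Pkp1 fell by 1.10 ± 0.19 (0.00934), from 6.09 to 7.18 on the AOM arrays to 5.52, 5.72 and 5.44. Sympk, symplekin, which is listed with the tight junction genes, fell by 0.82 ± 0.14 (0.00943) on the brightest of its 3 probe sets. That call was lost without serrated replicate 2 (0.0502). The mean of the probe sets differed by -0.17 (0.639), so its probe sets disagree.

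Ctnnb1, the gene of beta-catenin, which binds Cdh1 and also carries the Wnt signal, was at 9.54, 9.65 and 9.54 in serrated and 9.58 to 10.51 in AOM tumors, at -0.53 ± 0.15 (0.0635). Against LSL tumors alone it fell by 0.83 ± 0.21 (0.0386), a call lost in 8 of 16 alternatives (0.0540 to 0.262), the removal of each AOM array or of serrated replicate 2 among them. Of the 62 further genes 2 rose and 3 fell against each AOM group alone (8.06%, against 6.45% and 5.71% of all genes). Cldn18 and Ildr1 rose by 4.625 (0.0167) and 1.42 (0.0148) against K-rasG12D and 4.88 (0.0230) and 1.28 (0.0349) against LSL tumors. Besides Ctnnb1, Pkp1 fell by 1.39 (0.0132) and Sympk by 1.10 (0.0110, brightest probe set) against LSL tumors. Against K-rasG12D tumors Dsg4 fell by 3.34 (0.00897), the vascular adhesion molecule Jam2 by 1.14 ± 0.26 (0.0325) and the connexin Gja1 by 1.66 (0.0376). The calls of Jam2 and Gja1 were lost with array medians subtracted and without each K-rasG12D array, serrated replicate 1 or serrated replicate 2. For Jam2 the adjusted p was then 0.0529 to 0.139. That of Gja1 was also lost without either LSL array or with only the arrays compared. Of the calls against 1 AOM group in this paragraph, that of Dsg4 alone held in all 16 alternatives.

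**Figure D4:**
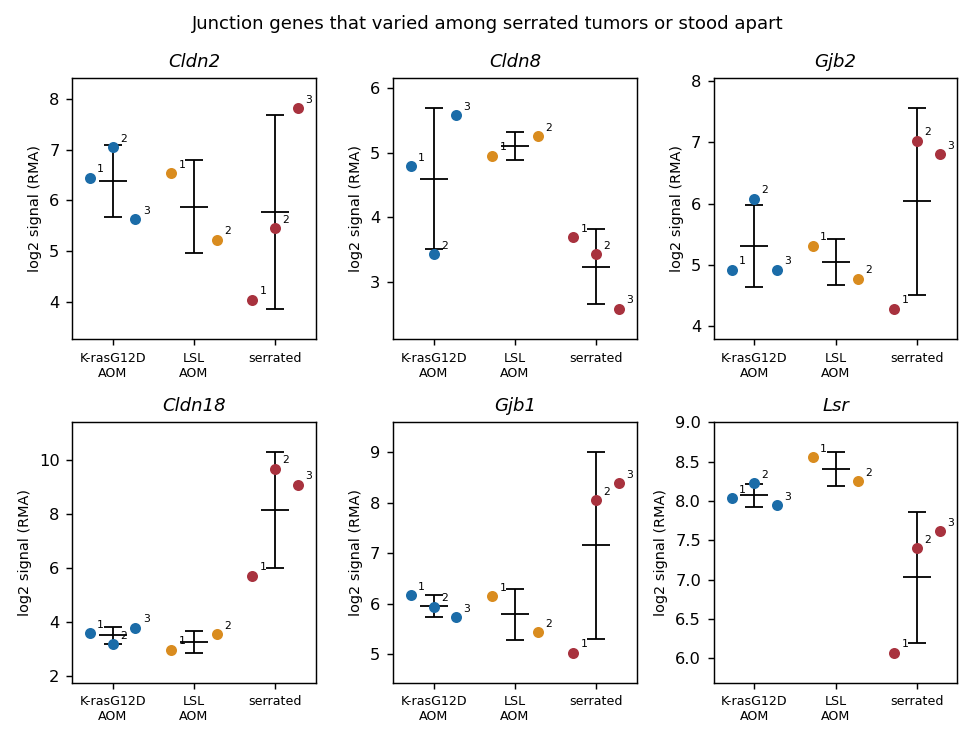
Log2 signal of Cldn2, Cldn8 and Gjb2 and of the further junction genes Cldn18, Gjb1 and Lsr on each array by group; numbers are replicates and bars the mean and SD (n = 3, 2 and 3), with a vertical range for each panel. Serrated replicate 1 is the lowest serrated array for Cldn2, Gjb2, Cldn18, Gjb1 and Lsr and the highest for Cldn8.

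Serrated replicate 1 also stood apart over all genes, with an SD of 1.77 against 2.00 to 2.13 on the other 7 arrays. Without it the junction genes gave 6 rises and 1 fall in serrated against all AOM tumors, Cldn23, Dsc2 and Gjb2 being added and all 4 calls kept. Calls over all genes in this comparison, 1871 with every array, were then 2090. Without serrated replicate 2 Cldn4 alone passed, and calls over all genes fell as well, to 643. Krt5, Krt13 and Krt4 were highest on that array, but a link to the lost calls was not tested. Without serrated replicate 3 there were 4 rises and 1 fall, with Cldn9 added, and 3874 calls over all genes. Cdkn2a, the gene of the Ink4a/Arf locus, was at 3.37 to 4.01 in serrated tumors, 5.39 to 6.21 in K-rasG12D AOM tumors and 3.59 and 4.28 in LSL AOM tumors. Its probe set may lie outside the deleted part, so it does not check the labels.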

How the data were processed

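The authors deposited log2 signals of 35557 probe sets on 8 arrays. The submitters' processing notes name GCOS and RMA (robust multi-array average), whose settings are not given in the sources used here. RMA adjusts background and scale between arrays, but the deposited arrays still differed in spread, with SDs of 1.77 (serrated replicate 1) to 2.13. Changes of dim genes are compressed on this scale. A platform annotation gave 1 symbol for 21789 probe sets, which became 19938 genes by taking the brightest probe set of each. Values were used as deposited. limma 3.58.1 in R 4.3.3 was fitted to all 8 arrays with 3 group means, 5 residual degrees of freedom and no covariates. Serrated tumors were set against the mean of the AOM group means, and all pairs of groups were compared. P-values were adjusted by Benjamini-Hochberg over all genes, with 0.05 as the threshold. Errors beside differences are SE. The small number of arrays limits the precision. The fit was also run on simulated data, in which each gene had the same independent spread on every array. The deposited arrays differed in spread, which that run does not cover. The 36 genes, the lists and the tests were chosen with earlier results of these data known. Values on every array are given for genes that passed and for others whose role the text turns on, and further junction genes are named where they passed, up to 8 each way for the first comparison and 4 for the others. Alternatives left out dim genes or each array, rescaled arrays, changed the variance model, weighted arrays or treated probe sets differently. Levels relative to Epcam and Cdh1 were added after seeing the data. Mean levels of marker lists are means of log2 values. Of the lists, glial and mesothelial markers gave 1 fall of 7, Msln, and smooth muscle markers 0 calls of 8.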

Additional observations from a re-analysis of the deposited data

How the results depend on the processing

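For serrated against all AOM tumors, 4 junction genes were called, and 7 after quantile normalisation and 14 with array weights, which gave serrated replicates 1 and 3 weights of 0.24 and 0.38 and replicate 2 one of 3.16. Leaving out single arrays gave 1 to 7. Against K-rasG12D AOM tumors, 2 were called, 10 after quantile normalisation, 17 with array weights, 1 with array medians subtracted, 1 with only the arrays compared, and 1 to 4 without single arrays. Against LSL AOM tumors, 2 were called, 5 after quantile normalisation, 9 with array weights, 1 with the trend and robust options, 0 with only the arrays compared, and 0 to 5 without single arrays. Between the AOM groups 0 were called in all 16 other settings. No call of a junction gene changed sign. Calls over all genes rose as well. Against K-rasG12D AOM tumors they were 1286, with 1949 after quantile normalisation and 5682 with array weights. With array medians subtracted they were 1074, and 881 with only the arrays compared. Against LSL AOM tumors they were 1138, with 1774 after quantile normalisation, 3670 with array weights and 332 with only the arrays compared. Against all AOM tumors quantile normalisation gave 2448. The split of all called genes, 722 higher and 1149 lower in serrated than in all AOM tumors, was 768 and 801 with array medians subtracted, 1215 and 875 without serrated replicate 1, and 5761 genes were called with array weights. Without single arrays, 643 (no serrated replicate 2) to 3874 (no serrated replicate 3) genes were called. Leaving out the dimmest 40% of genes, averaging probe sets or testing every probe set kept these counts within 1.5 times. The cause of these shifts was not tested. The array-weight counts rest largely on serrated replicate 2. No paired analysis was possible because the labels give no replicate numbers shared between groups. Dixon's test over the 5 AOM arrays, with both genotypes together, flagged 0 of the 36 junction genes. It can hardly flag a gene that separates the AOM groups, and the serrated arrays were not tested.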
